A study of Mus musculus with 8 samples.

Results

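The cytosolic ribosomal proteins are the protein part of the ribosome that translates the mRNA made in the nucleus. They were taken as the genes of the deposited table whose symbol is Rpl or Rps with a number and an optional suffix, together with Rpsa, Rplp0, Rplp1 and Rplp2. Symbols that name pseudogenes with -ps were left out. The rule found 89 genes of 35072 in the table: 46 of the large subunit, 31 of the small subunit and 12 set apart as paralogs. A paralog here is a second gene related to a core gene, such as Rpl22l1 beside Rpl22. Among the 12, Rpl6l, Rpl32l, Rps12l1, Rps3a2 and Rps3a3 are annotated as processed pseudogenes, so not every one of them encodes a protein. The gene Fau, which encodes a ribosomal protein fused to a ubiquitin-like domain, does not carry such a symbol and was treated as a companion.

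The cells were wild-type mouse CD8 T cells, taken as naive cells from spleen and lymph nodes. They were stimulated through CD3 and CD28 in the presence of IL-12 for 18 h and then cultured for 24 h with 2 mM formate (4 libraries) or with PBS, the vehicle (4 libraries). The formate group and the PBS group share genotype, activation and exposure time, so the comparison is of formate alone in activated cells. Sample titles carry codes that run in neighbours, formate 1 with PBS 1 (codes 11 and 10), formate 2 with PBS 2 (14 and 13), formate 3 with PBS 3 (2 and 1) and formate 4 with PBS 4 (8 and 7). No label says that neighbours belong together, or that libraries came from separate mice. The p-values therefore reflect the spread among these libraries, which may be technical.

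Ribosomal proteins assemble with ribosomal RNA in the nucleolus into a small subunit, which reads the mRNA, and a large subunit, which joins amino acids and holds the exit tunnel. A T cell leaving quiescence raises ribosome production as it grows and divides. Mammalian ribosomal protein mRNAs begin with a 5′ terminal oligopyrimidine tract, called TOP, a C followed by an unbroken run of C and T at the first transcribed bases. Through this tract LARP1 and mTORC1 control their translation, so that mRNA level and protein output can part. Several free ribosomal proteins, above all RPL5 and RPL11 in their particle with 5S rRNA, bind MDM2 and thereby stabilise p53. Many of the genes also hold small nucleolar RNAs (snoRNAs) in their introns and have processed copies elsewhere in the genome.

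The tract was looked for at the annotated starts of the members, and only some of them had it there. The windows below are from RefSeq on GRCm38.p6, 5′ to 3′ on the gene's strand, each with 15 bases before and 15 from the annotated start, and the capitals mark a tract of a C followed by at least 4 bases that are C or T, beginning within 5 bases of that start. They are shown for the genes with such a window that were called in the comparison described later, and for Rps27, the parent of Rps27l. Where a run of C and T began more than 5 bases before the start, as in Rpl35, the capitals begin inside that limit. Such runs enter the counts of the next paragraph.
Rpl22l1 (chr3:28805493-28805522, plus strand): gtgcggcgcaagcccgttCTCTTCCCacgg
Rpl13a (chr7:45128731-45128760, minus strand): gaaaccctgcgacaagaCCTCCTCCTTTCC
Rpl34 (chr3:130730384-130730413, minus strand): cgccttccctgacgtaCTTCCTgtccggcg
Rpl35 (chr2:39005117-39005146, minus strand): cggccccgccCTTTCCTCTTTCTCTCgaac
Rpl12 (chr2:32961697-32961726, plus strand): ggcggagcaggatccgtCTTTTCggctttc
Rps24 (chr14:24490663-24490692, plus strand): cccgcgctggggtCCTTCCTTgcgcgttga
Rps27l (chr9:66946071-66946100, plus strand): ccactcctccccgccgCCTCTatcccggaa
Rps27 (chr3:90213634-90213663, minus strand): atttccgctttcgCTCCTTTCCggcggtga
Rps2 (chr17:24720048-24720077, plus strand): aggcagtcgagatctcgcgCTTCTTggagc

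The RefSeq table matched 65 of the 89 members. Only the sense strand was searched. The tract began within 5 bases of an annotated start in 46.2% of the matched members, against 21.1% of 26960 other genes, and exactly at it in 14 members (21.5%), against 2.96% of other genes. At the first base of any GENCODE M21 transcript it was found in 22 of 84 members (26.2%) and in 5.07% of 21541 other protein-coding genes of the table. Rps12, Rps7 and Rpl5 had a tract in neither search, and Rps25 had it at the first base of a GENCODE transcript but not in its RefSeq window. That says only that the letters are not at the annotated bases. The annotated start can differ from the base where transcription begins in these cells.

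The members took a large share of every library. It was 11.8%, 11.9%, 9.26% and 10.2% of all counts in formate libraries 1 to 4, against 11.9%, 10.3%, 8.68% and 9.999% in PBS libraries 1 to 4. Both groups had their high values in libraries with codes 10 to 14 and their lowest in codes 1 and 2, and the ranges overlapped. The mean share was 10.8% ± 1.27 with formate and 10.2% ± 1.33 with PBS (SD, n = 4 each). Large subunit genes made up 6.06% ± 0.663 with formate and 5.77% ± 0.724 with PBS, and small subunit genes 4.63% ± 0.596 with formate and 4.37% ± 0.602 with PBS. Paralogs were minor, at 0.101% ± 0.0118 with formate and 0.0902% ± 0.00692 with PBS.

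**Figure D1:**
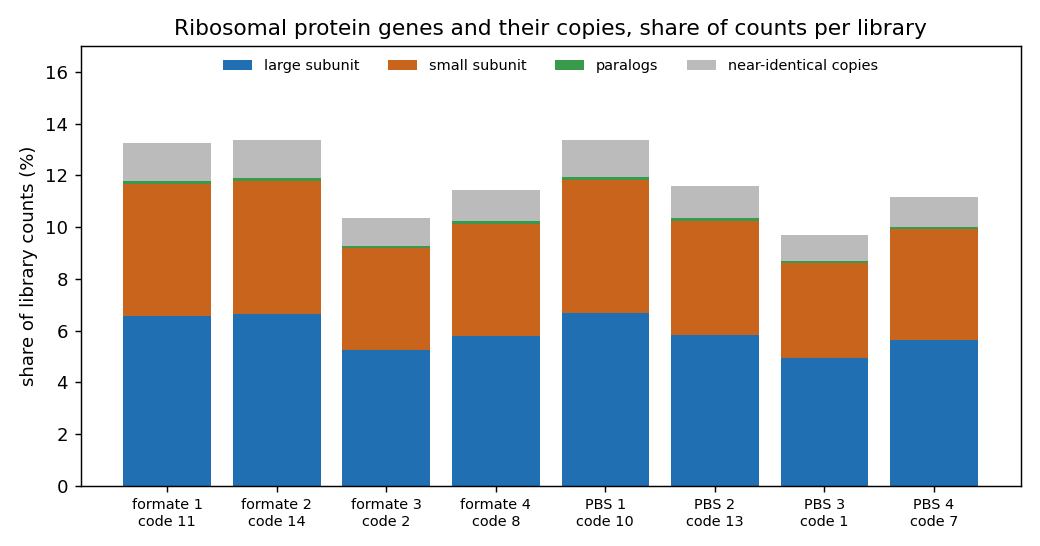
Share of all counts (%) taken in each library by large subunit genes, small subunit genes, paralogs and the near-identical copies of members elsewhere in the genome, with formate libraries on the left and PBS libraries on the right. Members without copies run from 9.26% to 11.9% with formate and from 8.68% to 11.9% with PBS, so the groups overlap.

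Library totals ran from 29361986 to 38010357 counts with formate and from 30275374 to 41393093 with PBS, so counting error is small for the members at high level. Libraries with codes 10 to 14 differed from those with codes 1 to 8 in the members: of the 77 genes that are no paralogs, 73 were higher in codes 10 to 14, by a median log2 of 0.24 (lowest -0.04, highest 0.62). The share of mitochondrially encoded transcripts was 0.560% to 0.906% with formate and 0.414% to 0.566% with PBS, higher with formate in 4 of 4 neighbouring pairs; its part in the results was not tested. The summed level of 7 CD8 T cell markers was 2337 to 2566 CPM (the count scaled to the TMM-normalised library total) with formate and 2389 to 2613 CPM with PBS. All listed markers of other cells were low: 3 CD4 genes summed to 8.52 to 14.6 CPM with formate and 9.76 to 13.7 CPM with PBS, 4 B cell genes to 13.3 to 22.1 CPM with formate and 12.1 to 19.2 CPM with PBS, and 4 myeloid genes to at most 2.21 CPM with formate and 1.89 CPM with PBS. The 2 NK genes summed to at most 0.066 CPM with formate and 0.0854 CPM with PBS, and the erythroid gene found was at 0 in every library. Bulk RNA cannot tell fewer cells of a type from less RNA per cell.

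The series was made to compare formate with vehicle in activated CD8 T cells. Tested over libraries without regard to the title codes, no ribosomal protein gene was called higher or lower with formate by edgeR's quasi-likelihood test with Benjamini-Hochberg adjustment, where 1 gene of 13299 tested (0.00752%) was called at an adjusted p under 0.05. Of the 89 members 85 were tested, and 2, Rps12 and Rps2, had an unadjusted p under 0.05 (background 4.77% of all genes). DESeq2 called none of the members and 19 genes in all (0.143%). The members' median log2 change was 0.05, against -0.01 over all tested genes. It was -0.02 without PBS 3 and 0.14 without PBS 1.

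With the neighbouring title codes as a block, which removes the difference between library pairs, 12 members rose with formate (background 5.35% of 13299 genes higher), 1 fell (background 7.52% lower) and 72 did not pass the test. At the level of most members the background was different: of 492 other genes with at least 300 CPM, where 74 members lie, 5.69% were called higher and 30.1% lower, with a median log2 change of -0.08. These 492 include some near-identical copies of members elsewhere in the genome, such as Rps12-ps3. An unadjusted p under 0.05 was found for 33 members, or 33 of 85, against 28.3% of all genes. The 12 were Rps12, Rpl22l1, Rpl17, Rps25, Rpl34, Rpl13a, Rps27l, Rps7, Rpl5, Rpl35, Rps24 and Rpl12, and the 1 that fell was Rps2. The changes were small: log2 0.18 to 0.26 for those that rose and -0.22 for Rps2. Because the pairing comes from the titles and not from a stated design, these calls hold only if neighbours belong together. All named changes in the paragraphs that follow are from this blocked fit unless stated, and every one of the 13 was short of the threshold without the block (adjusted p = 0.998). Fewer members were called with some pairs left out: without codes 1 and 2 only Rps12, and without codes 13 and 14 only Rps12, Rpl22l1 and Rpl5. Calls over all genes fell as well, from 1711 of 13299 to 337 of 13228 without codes 1 and 2. Without codes 13 and 14 they were 502 of 13149, so the loss is not particular to the members. Rps7, Rpl34, Rps27l, Rpl35, Rpl12, Rpl13a and Rps24 kept their calls in 6 to 9 of 12 alternatives to the blocked fit, with a highest adjusted p of 0.0775 (Rpl34) to 0.205 (Rpl13a).

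**Figure D2:**
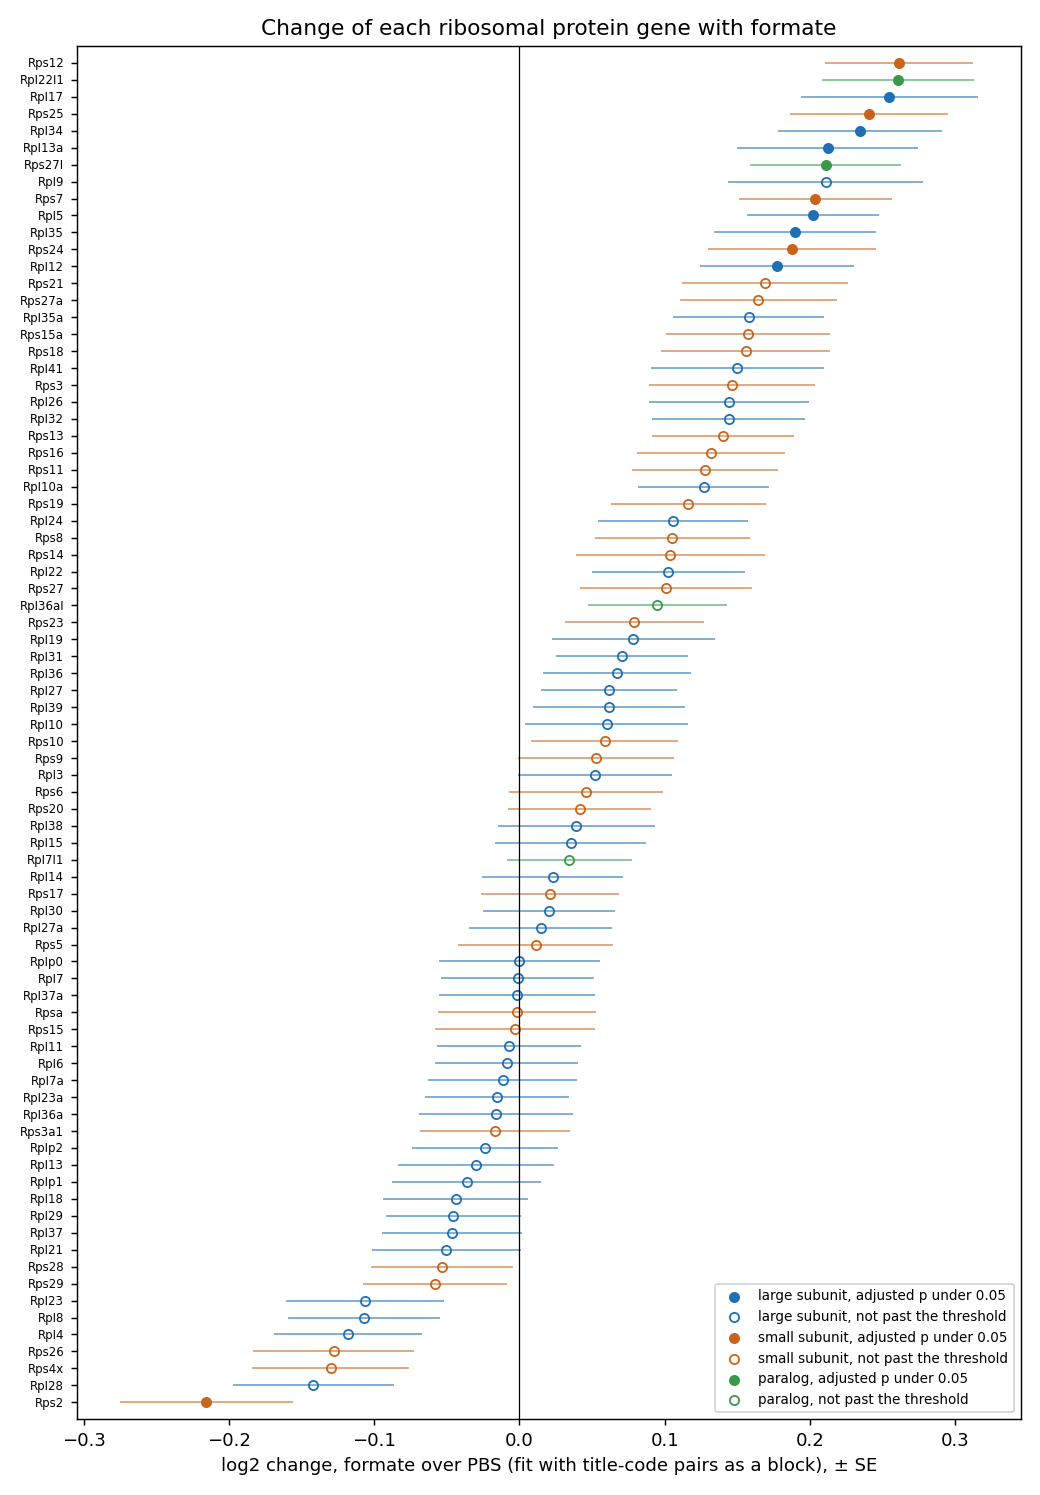
Log2 change with formate over PBS (horizontal axis, blocked fit, bars are ± SE) for 80 of the 81 tested members with at least 1000 counts in every library. Filled points passed an adjusted p of 0.05. Rps12, Rpl22l1 and Rpl17 lie at the top, at 0.26, 0.26 and 0.25, and Rps2 lies alone at the bottom at -0.22, and most members sit between -0.15 and 0.17.

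Among small subunit proteins, 4 of 31 tested members rose, 1 fell and 26 were not called, with a median log2 change of 0.10. The background was 5.35% higher and 7.52% lower over all tested genes. Among 492 other genes of at least 300 CPM it was 5.69% higher and 30.1% lower. Rps12, a protein at the small subunit's beak whose Drosophila counterpart takes part in the competition between cells of unequal ribosomal protein dose, had 104, 136, 101 and 114 CPM in formate libraries 1 to 4, against 85.1, 101, 91.1 and 100 CPM in PBS libraries. The formate value was higher in 4 of 4 pairs, although the highest PBS value (PBS 2) exceeded the lowest formate value (formate 3). The log2 change was 0.26 ± 0.05 (SE), with an adjusted p of 0.00564 and a range of 6.19e-05 to 0.0431 over 12 alternatives to the blocked fit, none of which ended the call.

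Rps25, which some viral internal ribosome entry sites need for initiation, had 1602, 1733, 1066 and 1314 CPM with formate, against 1446, 1272, 943 and 1151 CPM with PBS. Formate was higher in 4 of 4 pairs, but libraries of codes 10 to 14 were high in both groups, so the ranges overlapped. Its log2 change was 0.24 ± 0.05 (SE, adjusted p = 0.011; 6.19e-05 to 0.0668 over the 12 alternatives). Rps7, which can bind MDM2, averaged 1211 ± 255 CPM with formate and 1050 ± 212 CPM with PBS (log2 0.20 ± 0.05 SE, adjusted p = 0.0211). Rps24, one of the genes mutated in Diamond-Blackfan anaemia, averaged 2225 ± 459 CPM with formate and 1948 ± 377 CPM with PBS, and its adjusted p of 0.0442 was the highest among the calls.

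Rps2 lines the channel by which mRNA enters the small subunit and is a substrate of the arginine methyltransferase PRMT3. It had 3512, 3400, 3605 and 3011 CPM in formate libraries 1 to 4, against 4124, 3793, 3709 and 4061 CPM in PBS libraries. All 4 formate values lay below all 4 PBS values. Of the 85 tested members, 2 had all formate values below all PBS values, Rps2 and Rpl4. That share was near the 1.85% found over all tested genes. No member had its formate range above its PBS range, against 2.44% of all genes (4.29% in either direction). The log2 change of Rps2 was -0.22 ± 0.06 (SE, adjusted p = 0.0279), largest in codes 7 and 8 (-0.43) and smallest in codes 1 and 2 (-0.04). The call was lost in 7 of 12 alternatives, where its adjusted p reached 0.229.

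Of the large subunit, 6 of 46 members rose, none fell and 40 were not called, and the median log2 change was 0.03. The background was again 5.35% higher and 7.52% lower over all tested genes. Rpl17, which lies beside the exit of the peptide tunnel, had 2045, 2148, 1164 and 1493 CPM with formate, against 1915, 1505, 1004 and 1302 CPM with PBS. It was higher in 4 of 4 pairs, by 0.09 in codes 10 and 11 and 0.51 in codes 13 and 14, and the ranges overlapped. The log2 change was 0.25 ± 0.06 (SE, adjusted p = 0.0155; 1.57e-05 to 0.13 over the alternatives). Rpl35, also near the tunnel exit, averaged 753 ± 130 CPM with formate and 660 ± 107 CPM with PBS (log2 0.19 ± 0.06 SE, adjusted p = 0.0364).

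Rpl34 averaged 809 ± 176 CPM with formate and 685 ± 134 CPM with PBS, a log2 change of 0.23 ± 0.06 (SE, adjusted p = 0.0154). Rpl13a, which in human myeloid cells leaves the ribosome to form the interferon-gamma-activated inhibitor of translation, averaged 3039 ± 693 CPM with formate and 2615 ± 565 CPM with PBS (log2 0.21 ± 0.06 SE, adjusted p = 0.0366). Rpl12, at the base of the stalk to which elongation factors bind, had 157, 156, 142 and 139 CPM with formate, against 129, 129, 125 and 142 CPM with PBS. Rpl12 was higher in 3 of 4 pairs, with codes 7 and 8 the exception (-0.03), and its adjusted p was 0.039.

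Rpl5, the partner of 5S rRNA, had 86.8, 85.0, 65.0 and 82.1 CPM with formate, against 73.7, 73.7, 57.8 and 71.8 CPM with PBS. It was higher in 4 of 4 pairs by a narrow 0.17 to 0.23, while PBS 3 and formate 3 were the low libraries of their groups. The log2 change was 0.20 ± 0.05 (SE, adjusted p = 0.0109). Rpl11, which enters the same particle, did not pass the test: 838, 939, 719 and 797 CPM with formate, against 921, 875, 722 and 791 CPM with PBS, a log2 change of -0.01 ± 0.05 (SE, adjusted p = 0.943).

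The other members chosen as a panel did not pass the test. The stalk proteins, which recruit the translation GTPases, had log2 changes of 0.00 for Rplp0, -0.04 for Rplp1 and -0.02 for Rplp2, each ± 0.05 or 0.06 (SE). Rpsa, also known as a laminin receptor, had -0.00 ± 0.05, and Rps6, the substrate of S6 kinase, had 0.05 ± 0.05. Rps27a, made as a fusion with ubiquitin, had 0.16 ± 0.05 (adjusted p = 0.0575), close outside the threshold with Rpl35a (0.16 ± 0.05, adjusted p = 0.0568). On the lower side the nearest uncalled member was Rpl28, a protein of the large subunit, at -0.14 ± 0.06 (adjusted p = 0.104). Rpl4, whose long loop reaches into the exit tunnel, had 3001, 2892, 3091 and 3071 CPM with formate, against 3530, 3162, 3129 and 3273 CPM with PBS. Its groups did not overlap, yet its log2 change of -0.12 ± 0.05 did not pass (adjusted p = 0.139).

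**Figure D3:**
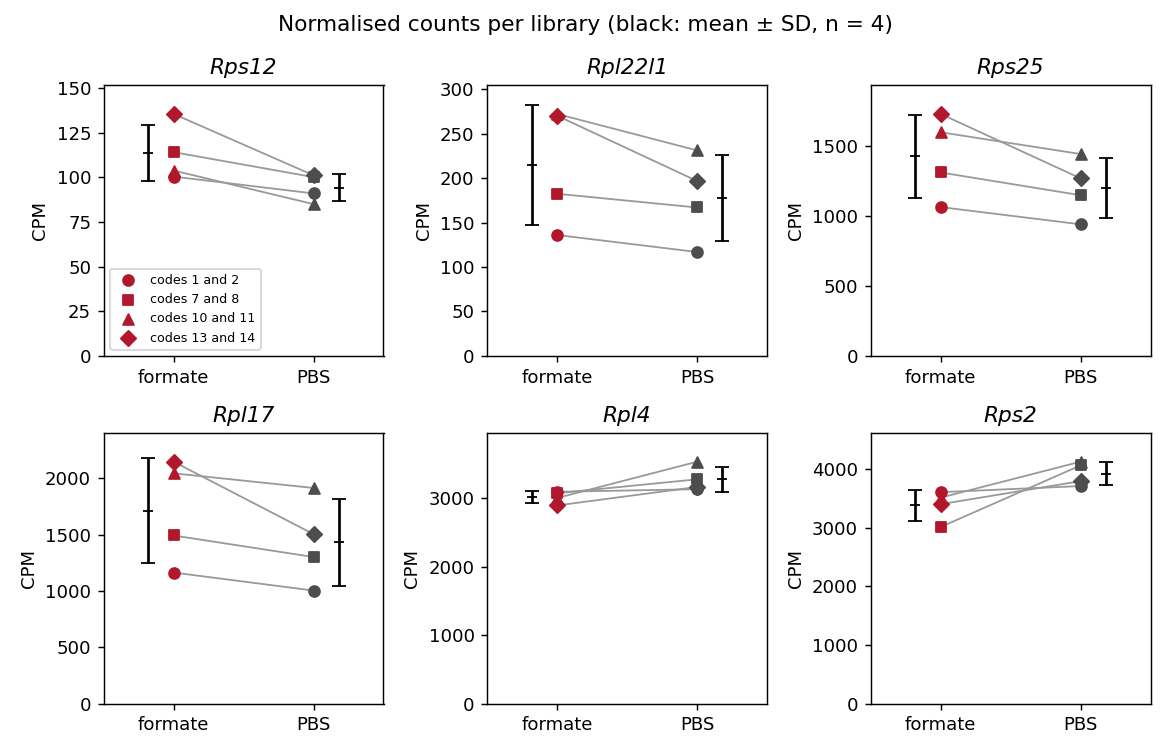
CPM per library (vertical axis, from 0) of 6 members with formate on the left and PBS on the right of each panel; grey lines join neighbouring title codes and black bars give the mean ± SD (n = 4). Rps12, Rpl22l1, Rps25 and Rpl17 are higher with formate along each of the 4 lines, Rps2 and Rpl4 lower along each of the 4, and the spread between lines exceeds most of the slopes for Rpl22l1, Rps25 and Rpl17.

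Of the 12 paralogs, 8 were tested and 2 rose (background 5.35% of all tested genes). Rpl22l1 encodes a relative of RPL22 that can take its place in the ribosome; in mice RPL22 is needed for the development of alpha-beta T cells and holds Rpl22l1 mRNA down. Rpl22l1 had 272, 270, 136 and 182 CPM in formate libraries 1 to 4, against 231, 197, 117 and 167 CPM in PBS libraries. It was higher in 4 of 4 pairs, by 0.13 to 0.46, while the libraries of codes 10 to 14 were high in both groups. The log2 change was 0.26 ± 0.05 (SE, adjusted p = 0.0065), and 1 of 12 alternatives, at an adjusted p of 0.0592, ended the call. Rpl22 itself averaged 586 ± 83.8 CPM with formate and 546 ± 80.1 CPM with PBS (log2 0.10 ± 0.05 SE, adjusted p = 0.215).

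The ratio of paralog to parent within a library does not depend on scaling between libraries. Rpl22l1 stood at 44.3%, 39.8%, 28.4% and 31.9% of Rpl22 in formate libraries 1 to 4, against 36.2%, 35.1%, 26.4% and 30.9% in PBS libraries. Each formate ratio exceeded that of its neighbour, but the groups overlapped, and the mean log2 difference of 0.16 gave p = 0.429 in an exact two-sided permutation test over the 70 assignments of 4 against 4 libraries (smallest possible p 0.0286; 0.886 after Benjamini-Hochberg adjustment over 6 ratios). The log2 difference varied with the library left out: it was 0.05 without formate 1, 0.10 without formate 2, 0.26 without formate 3 and 0.07 without PBS 3. It stayed positive whichever library was left out. Leaving out 1 library also unbalances the library sets. Codes 10 to 14 exceeded codes 1 to 8 by a log2 of 0.70 for Rpl22l1 and 0.30 for Rpl22, and the part of this was not tested.

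Rps27l, a p53 target that can replace RPS27, averaged 210 ± 23.8 CPM with formate and 181 ± 14.2 CPM with PBS and rose by 0.21 ± 0.05 on the log2 scale (SE, adjusted p = 0.0167). Rps27 averaged 804 ± 109 CPM with formate and 751 ± 112 CPM with PBS (adjusted p = 0.283). The ratio of Rps27l to Rps27 differed by a log2 of 0.11 (exact permutation p = 0.6), higher in 3 of 4 pairs. Rpl36al over Rpl36a differed by 0.11 (exact permutation p = 0.229), with 0.07 left without formate 1 and 0.18 without formate 3, and Rpl7l1 over Rpl7 by 0.04 (exact permutation p = 0.886). Rpl7l1 averaged 247 ± 41.6 CPM with formate and 241 ± 43.6 CPM with PBS. Its difference of codes 10 to 14 from codes 1 to 8 was a log2 of -0.38, where that of Rpl7 was 0.21.

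The other paralogs were near the limit of counting. Rpl39l, a gene known from testis, had 0.323 to 1.42 CPM with formate and 0.285 to 1.01 CPM with PBS, where Rpl39 had 494 to 648 CPM with formate and 480 to 689 CPM with PBS. Rpl6l, Rps3a2 and Rps3a3, all annotated as processed pseudogenes, were likewise at most 1.86 CPM in any library, and none passed the test. The testis gene Rpl10l reached at most 0.398 CPM, and the muscle gene Rpl3l and Rpl32l at most 0.0807 and 0.0854 CPM; these were too low to be tested. In the smallest library 3 counts equal 0.102 CPM. Rps12l1, listed as a processed pseudogene, had 15.8 CPM in PBS 1, at most 0.0332 CPM in the formate libraries and 0 in the other PBS libraries.

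Most changes were small, and their order among the genes recurred from pair to pair. Within pairs, the members' median log2 change was -0.07 in codes 10 and 11, with 30 of 85 genes positive, and 0.17 in codes 13 and 14, with 74 positive. It was 0.09 in codes 1 and 2 (72 positive) and 0.03 in codes 7 and 8 (56 positive), so the level of the whole family shifted from pair to pair, in either direction. The ranking inside the family was alike in all pairs: over the 77 genes without paralogs, the log2 changes of 2 pairs had a Pearson r of 0.60 to 0.85 and a Spearman rho of 0.74 to 0.86 in the 6 comparisons, in which no library is shared. Over all 13299 tested genes Pearson r was 0.18 to 0.28 and Spearman rho 0.25 to 0.43. A further 492 other genes of at least 300 CPM have counting error as small as most members. Over these, Pearson r was 0.50 to 0.77 and Spearman rho 0.45 to 0.86. The genes share libraries and scaling within a pair, and genes are not independent replicates, so these values describe the libraries.

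**Figure D4:**
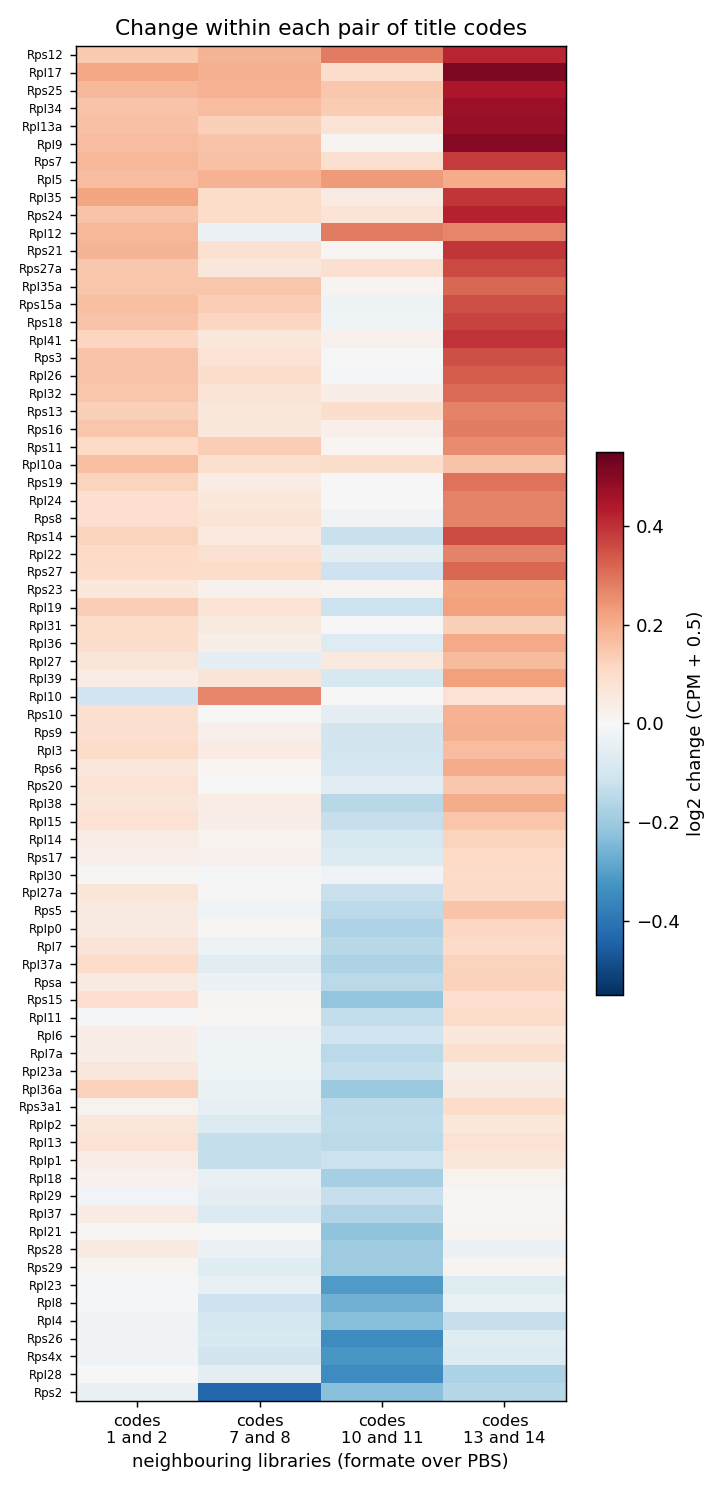
Log2 change with formate over PBS (colour, red higher, blue lower, on CPM + 0.5) within each pair of neighbouring title codes (columns) for 76 of the 77 members without paralogs (rows), ordered by the blocked fit. Codes 13 and 14 are mostly red (median over members 0.17) and codes 10 and 11 mostly blue (median -0.07), while the order of genes from top to bottom is alike in the columns.

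Members high in this order included, beside the called genes, Rpl9, Rps21 and Rpl41, and those low in it included Rps4x, Rps26 and Rpl23, none of which passed the test. In all 4 pairs 24 of the 85 tested members were higher with formate (background 16.0% of all genes) and 6 were lower (background 19.5%): Rpl23, Rpl8, Rpl4, Rps26, Rps4x and Rps2. The same order followed the difference between library sets: the blocked log2 change and the difference of codes 10 to 14 from codes 1 to 8 had a Pearson r of 0.73 and a Spearman rho of 0.75 over the 77 genes. It followed GC content (r = -0.23), mean level (r = -0.24) and transcript length (r = -0.06) less closely. No member passed edgeR's test of an interaction between formate and library set (0 of 13299 genes called; with the block 9 genes, or 0.0677%, none a member; 3 members, Rpl28, Rps27l and Rpl12, had an unadjusted p under 0.05).

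Genes with a tract at a GENCODE transcript start had a median log2 change of 0.06 (3 of 22 higher, 1 lower), those without 0.04 (7 of 55 higher, none lower). Genes that hold snoRNAs had a median of 0.03 (5 of 30 higher, 1 lower), against 0.06 for those that hold none (5 of 47 higher). Rps12 holds 3 snoRNAs, Rpl5 3, Rpl17 3 and Rpl13a 4. Members below the median GC content of 51.8% had a median of 0.09 with 7 of 38 higher, against 0.04 with 3 of 39 higher and 1 lower for the rest. Over all tested genes 5.35% were called higher and 7.52% lower. These are medians and counts of groups that share libraries, and no difference between them was tested.

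Near-identical copies limit how well single members can be read. Against the members' coding sequences, 534 copies of 78 parents matched at 95% identity or more over at least 90% of the length, and 24 of them, belonging to 23 parents, had at least 100 CPM. In 8 cases the copy received more counts than its parent. The authors' estimate divides reads of the same sequence between rows, and how it did so was not tested.

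Rps12 is the extreme. Its copy Rps12-ps3 (chr19:59322290-59322783), identical over the whole coding sequence, held 17.4 times the counts of the Rps12 row (chr10:23785183-23787275, 5 exons, minus strand). Rps12-ps3 had 2129, 2279, 1555 and 1774 CPM in formate libraries, against 1946, 1726, 1377 and 1702 CPM in PBS libraries. It rose by a log2 of 0.19 ± 0.06 (SE, adjusted p = 0.0352), and formate was higher in 4 of 4 pairs. With copies added to their parents, Rps12 had 2239, 2419, 1658 and 1891 CPM with formate, against 2035, 1830, 1470 and 1805 CPM with PBS, and was still called (log2 0.20 ± 0.06 SE, adjusted p = 0.0301).

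For Rpl5 the addition ended the call. Its copy Gm15500 (chr7:114705217-114706235, identical in the coding sequence) held 3.81 times the counts of Rpl5 and varied widely: 553, 275, 166 and 207 CPM in formate libraries, against 484, 117, 200 and 268 CPM in PBS libraries. The highest value of Gm15500 was in formate 1 and the lowest in PBS 2, with 2 of 4 pairs higher. Rpl5 with its copies had 642, 363, 233 and 291 CPM with formate, against 560, 192, 258 and 342 CPM with PBS, and its log2 change was 0.18 ± 0.26 (SE, adjusted p = 0.719).

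Rpl27, of the large subunit, received less than both Rpl27-ps3, at 4.97 times its counts, and LOC108167922, at 1.53 times. Summed, Rpl27 had a log2 change of 0.12 ± 0.05 (adjusted p = 0.132). Rpl35 with its copies lost its call (log2 0.18 ± 0.06, adjusted p = 0.0534), and Rps7 with its copies kept it (0.21 ± 0.05, adjusted p = 0.0168). Over all members, adding copies left 10 higher (background 5.63%) and 1 lower (background 7.84%), all among the 13 called without them.

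**Figure D5:**
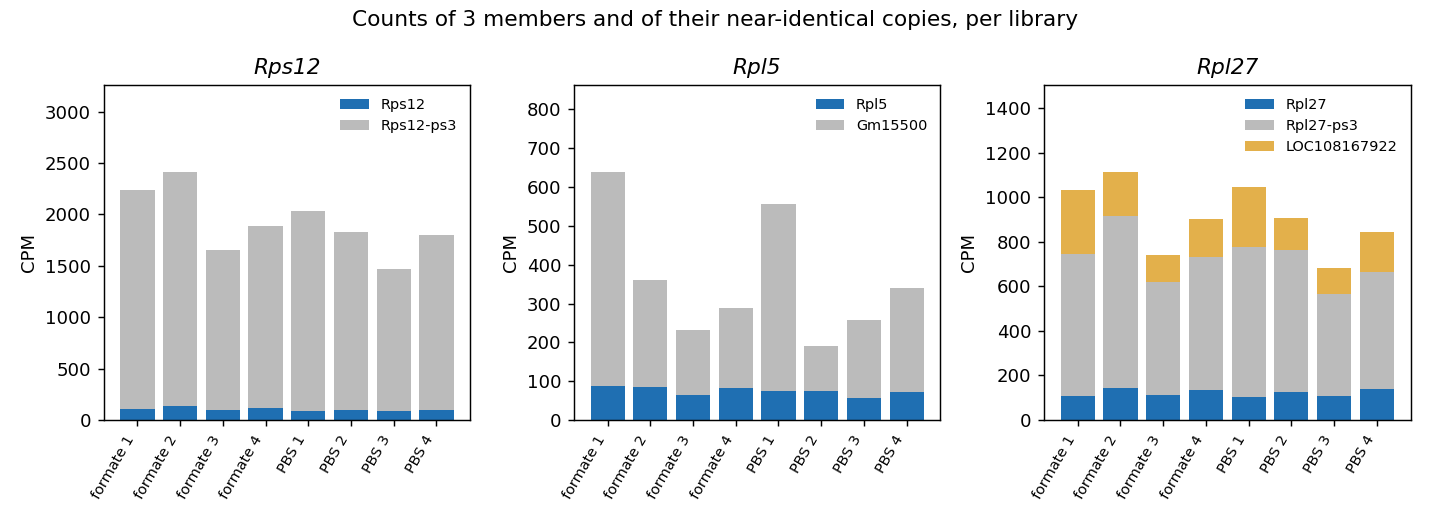
CPM per library (vertical axes, from 0) of Rps12, Rpl5 and Rpl27 (blue, bottom) with their near-identical copies stacked on top, formate libraries left of PBS libraries. The copy's part exceeds the blue part in every library, and Gm15500 runs from 117 CPM in PBS 2 to 553 CPM in formate 1.

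Levels per transcript length place the 77 members without paralogs in an order. In CPM per kilobase of transcript, Rpl41, the shortest ribosomal protein, was highest, at 5574 with formate and 4999 with PBS. In the order of the formate libraries Rplp1 followed, with 3832 with formate and 3934 with PBS, and then Rplp0, with 3484 with formate and 3502 with PBS. Of the 77, Rpl5 was lowest, with 39.0 with formate and 33.9 with PBS, followed by Rpl12 with 119 with formate and 106 with PBS. Rps12 stood at 230 with formate and 191 with PBS. Counts of the copies are not part of these values, nor was the length of the transcripts used in these cells known.

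The companions of the pathway were read from 5 lists, and none of their genes was called without the block. With the block, 5.35% of all tested genes were called higher and 7.52% lower. Of 18 other TOP genes of translation, none rose, 5 fell and 13 were not called, with a median log2 change of -0.05. Eef2, the translocation factor, had 4107, 3495, 4397 and 3968 CPM with formate, against 5011, 4344, 5118 and 4618 CPM with PBS (log2 -0.26 ± 0.05 SE, adjusted p = 0.00501). Pabpc1, which binds the poly(A) tail, fell by 0.25, Eif4b, a partner of the helicase that unwinds the 5′ end, by 0.22, Eif3f by 0.20 and Vim, an intermediate filament gene with a TOP start, by 0.34. Each of the 5 was lower in 4 of 4 pairs. For comparison, 30.1% of the 492 other genes of at least 300 CPM were called lower, a set that includes Eef2, Pabpc1, Eif4b and Vim. Eef1a1 (-0.00 ± 0.06) and Tpt1 (0.09 ± 0.05) were not called, nor was Fau (0.15 ± 0.05).

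Among 12 chaperones and loading factors of ribosomal proteins, Aamp fell (log2 -0.16 ± 0.04 SE) and 11 were not called, Rrs1 and Rpf2 of the 5S particle among them (-0.12 ± 0.05 and 0.06 ± 0.04). For this list and those below, the background was 5.35% higher and 7.52% lower over all tested genes. Of 14 genes of mTORC1 and TOP control, Eif4ebp2, a repressor of cap-dependent translation, fell (-0.17 ± 0.05), and Larp1 (-0.12 ± 0.05), Mtor (0.08 ± 0.06) and Rps6kb1 (0.02 ± 0.05) did not pass. Eif4ebp1 had the list's largest change, in the other direction, and did not pass either (0.54 ± 0.32, higher in 3 of 4 pairs). In the MDM2 and p53 list of 8, Mdm2 rose to 110 ± 5.20 CPM with formate, against 99.4 ± 6.67 CPM with PBS (log2 0.15 ± 0.04, adjusted p = 0.0372). Mdm4 rose to 131 ± 8.23 CPM, against 109 ± 10.3 CPM with PBS (0.27 ± 0.04), and Trp53 fell by 0.15. The p53 target Cdkn1a was not called (-0.13 ± 0.05). Of 9 genes of ribosome rescue and quality control, Pelo and Hbs1l, which together release stalled ribosomes, fell by 0.23 and 0.14, and 7 were not called.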

How the data were processed

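RNA was measured in 8 libraries (4 formate, 4 PBS), prepared from polyA RNA by a strand-preserving kit with paired 58 bp reads, per the labels' protocols. The authors deposited estimated counts per gene (expected counts), neither normalised nor pooled. Per the submitters' processing notes the builds were GRCm38 and mm10, with Trimmomatic, kallisto and MultiQC as tools; which transcriptome release and strand setting were used is not given in the sources used here, so antisense and overlapping genes, like copies, are uncertain. Fractional values made up 56.7% of those above 0 (tolerance 1e-06); all values were rounded to whole counts.

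The test was that of edgeR 4.0.16, run in R 4.3.3 (TMM, filterByExpr, robust quasi-likelihood test, Benjamini-Hochberg over all 13299 tested genes, threshold 0.05), checked on simulated counts; DESeq2 1.42.0 was an alternative. CPM values are TMM-scaled, given as mean ± SD over 4 libraries; changes within pairs used CPM + 0.5. Copies were found with BLAST 2.17.0 against GENCODE M21 transcripts, which also supplied GC content, length and snoRNAs (34581 identifiers matched, 8884 rows without a symbol). The members, gene lists, and named-gene rule (called members, paralogs with parents, a fixed panel, extremes and members next to the threshold) were chosen with earlier results of these data known. Rpl4, Rpl27 and the copies Rps12-ps3, Gm15500, Rpl27-ps3 and LOC108167922 were added after their values were seen. Rpl8, Rpl9, Rpl23, Rpl41, Rps4x, Rps21 and Rps26 are also named outside that rule, picked by their values. Some genes that enter the counts are not reported here by name.

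The main fit has no pairing term, since the labels state none. Deviations from the group means correlated at 0.839 (codes 1 and 2), 0.572 (7 and 8), 0.828 (10 and 11) and 0.514 (13 and 14). Each library correlated best with its neighbour in the other group, with the best non-neighbour at 0.408 to 0.516, always of the same library set, so the check does not tell pairs from sets for codes 7 and 8 or 13 and 14. The fit with the block was therefore set beside the main one. Library totals are the depth; 3 counts in the smallest library equal 0.102 CPM.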

Additional observations from a re-analysis of the deposited data

Results flagged for a closer look

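In groups of 4 libraries the gap of the highest or lowest library to its nearest neighbour was set against the group's range by Dixon's criterion at the 95% level. Of 88 groups of members' levels and library measures, 5 were beyond it; chance flags about 1 group in 20. Rpl5 was 57.8 CPM in PBS 3, below the 71.8 to 73.7 CPM of the other PBS libraries. The mitochondrially encoded share was 0.566% in PBS 2, above 0.414% to 0.438% in the other PBS libraries. Rps12l1 reached 15.8 CPM in PBS 1 and 0 in the other PBS libraries, and 0.0332 CPM in formate 1 and 0 in the other formate libraries. Rpl3l had 0.027 CPM in PBS 3 and 0 in the other PBS libraries, which is under the level of 3 counts.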

How the results depend on the processing

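The unpaired fit called 0 members under every alternative tried, and its median log2 change over members ran from -0.02 to 0.14 when a library was left out. The replicate block raised the count of called members to 13 (12 higher, 1 lower). In the blocked fit, library size alone gave 26 higher and 0 lower, no filter on low counts 22 and 5, DESeq2 12 and 3; upper quartile scaling gave 16 and 0, RLE 8 and 1, and GC offsets 11 and 0. The calls without a filter included Rps12l1, which had 15.8 CPM in PBS 1 and almost none elsewhere. Leaving out a pair gave 1 to 17 higher (fewest without codes 1 and 2) and 0 lower in each case. Over all genes it gave 160 to 556 higher and 177 to 815 lower, also fewest without codes 1 and 2. Rps12 was the only member called in all 12 alternatives. Of all genes, TMM called 711 higher and 1000 lower, library size alone 1048 and 539, upper quartile 832 and 736, RLE 612 and 1126, GC offsets 408 and 937. No filter on low counts called 916 higher and 1361 lower of 23059 genes, and DESeq2 with the block 490 and 1048 of 13299. The log2 difference of 4 paralog ratios changed sign with 1 library left out: Rpl39l ran from -0.25 (without formate 4) to 0.51, Rpl7l1 from -0.18 (without PBS 1) to 0.20, Rps27l from -0.020 (without PBS 1) to 0.18, and Rps3a2 from -0.69 to 0.086 (without formate 1). No member that was called reversed; the causes were not tested. At this depth only changes of low paralogs are limited by counting.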
